A study of Mus musculus with 6 samples.

Results

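Vascular leptomeningeal cells (VLMC) were the 68 cells that the authors' annotation names VLMC among the 20151 annotated cells of 4 hypothalamus libraries. Each library was made from the hypothalamus of 1 male ob/ob mouse, a strain that lacks leptin and becomes obese and diabetic. The mice were 11 weeks old, had received 3 µg of FGF1 R50E, an altered form of fibroblast growth factor 1, into the cerebral ventricles, and were killed on day 5. The labels name 6 such mice, and cells of 4 of them, mice 3, 4, 30 and 34, were analysed here. All 4 mice belong to 1 group, so no effect of the injected protein could be estimated, and VLMC were compared with the 8 other annotated types of the same libraries and between mice. Cells were whole dissociated cells counted with the 10x Genomics 3' chemistry, in which each captured RNA molecule carries a unique molecular identifier (UMI).

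VLMC are the fibroblasts of the pia and arachnoid, the inner membranes that wrap the brain, and of the sheaths around larger vessels that enter it. They lay down fibrillar collagens and small proteoglycans, take part in the barrier between cerebrospinal fluid, blood and brain, secrete retinoic acid and insulin-like growth factor 2, and are a known source of chemokines, the secreted proteins that draw leukocytes. Their genes are therefore described by these roles, from matrix to transport, signalling and defence.

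Mouse 30 stood apart and carried most of the cells. It gave 44 of the 68 VLMC and 84163 of their 124361 UMIs (67.7%), whereas mouse 3 gave 6 cells with 5592 UMIs, mouse 4 gave 12 cells with 22076 UMIs and mouse 34 gave 6 cells with 12530 UMIs. VLMC made up 0.0812% of the cells of mouse 3 (exact binomial 95% interval 0.0298 to 0.177), 0.377% of mouse 4 (0.195 to 0.658), 1.46% of mouse 30 (1.07 to 1.96) and 0.0912% of mouse 34 (0.0335 to 0.198). The share in mouse 30 lay above the other 3 intervals, and the mean over mice was 0.504% ± 0.655 (SD, n = 4), or 0.183% without mouse 30. Per 100 endothelial cells there were 1.34 VLMC in mouse 3, 6.90 in mouse 4, 19.6 in mouse 30 and 1.43 in mouse 34, so the order of the mice was the same against another cell type of the vessel wall. A difference in dissection or dissociation between mice and a difference in the tissue cannot be told apart from these shares. Mouse 30 also differed in chemokine and interferon genes, so the counts of genes called against endothelial cells are given with and without it.

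The depth of a VLMC was close to that of other cells. The median VLMC held 1275 UMIs and 734 genes, with 9.57% of UMIs from mitochondrial genes, and the median over all 20151 cells was 1022 UMIs, 612 genes and 13.2%. The authors' doublet score was higher in VLMC, with a median of 0.109 against 0.0584 over all cells, and the silhouette value, which says how well a cell sits in its own cluster, was lower at 0.0435 against 0.416. None of the 68 cells shared a barcode with a cell of another library, although 194 barcodes occurred in more than 1 library. No cell was removed here, and the part that doublets play in the levels below was not tested.

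The markers of the label were high in the pooled cells, a description only, since labels made from the same counts would give this. Of the 68 cells, 14 had no Dcn UMI, 11 of them from mouse 30, and 13 had neither a Dcn nor a Lum UMI. Decorin (Dcn), a small proteoglycan that binds collagen fibrils, reached 2702 UMIs per 1000000 UMIs (CPM) in the pooled VLMC (exact Poisson 95% interval 2421 to 3007, counting error only), and 31.4 CPM in endothelial cells, the next type. By mouse it was 6259 CPM in mouse 3, 5889 in mouse 4, 1782 in mouse 30 and 1676 in mouse 34. Mice 3 and 4 were higher than mice 30 and 34 at this gene, and the lowest mouse was still far above the 31.4 CPM of endothelial cells. Collagen type I alpha 2 (Col1a2) was at 1967, 1404, 1057 and 1277 CPM in mice 3, 4, 30 and 34, against 31.4 CPM in endothelial cells. Lumican (Lum), a relative of decorin, was at 1788, 951, 143 and 159.6 CPM in the same order, against 4.14 CPM in endothelial cells, and was the most uneven of the 3 between mice. Without mouse 30 the pooled levels were 4627 CPM for Dcn, 1443 CPM for Col1a2 and 821 CPM for Lum. All 20 genes on a list of VLMC markers had a UMI, and the list summed to 17594 CPM in VLMC, 15779 to 33083 CPM by mouse. It summed to 1321 CPM in oligodendrocyte precursors, the next type, 1006 CPM in oligodendrocytes and 729 CPM in endothelial cells.

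**Figure D1:**
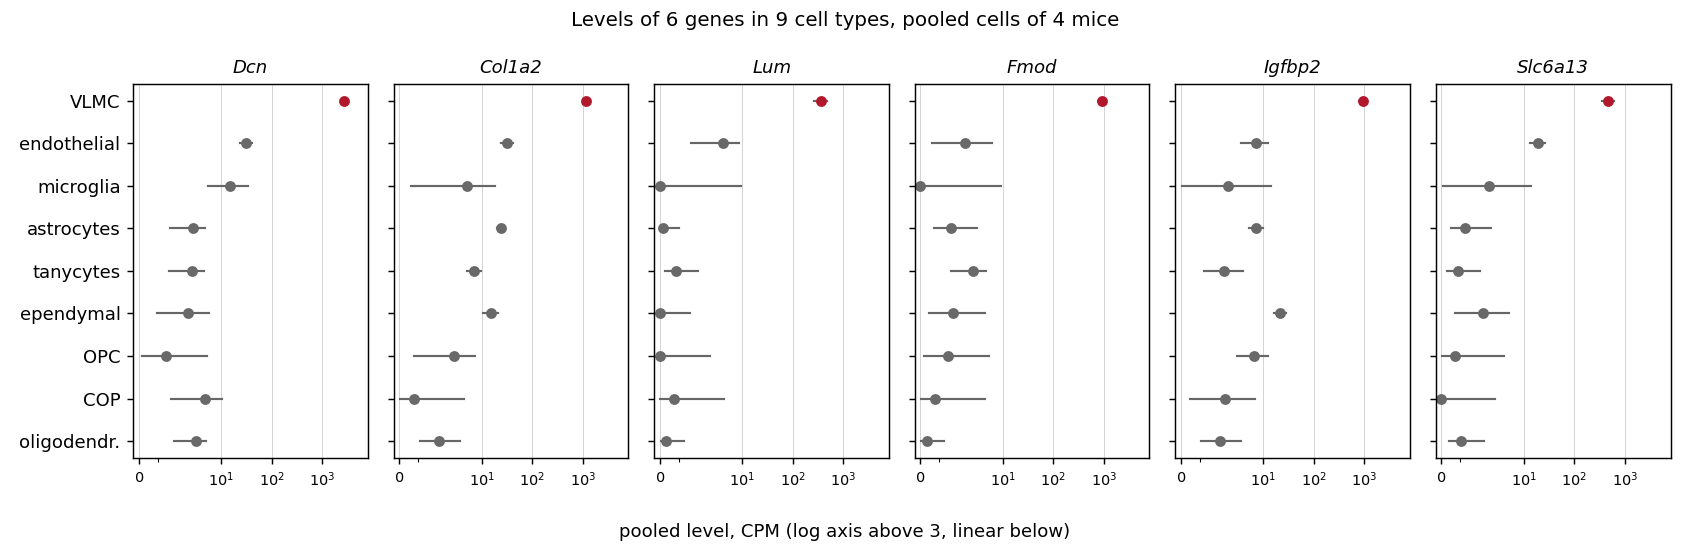
Levels of Dcn, Col1a2, Lum, Fmod, Igfbp2 and Slc6a13 in the pooled cells of 9 types, in CPM on a log axis that is linear below 3, with exact Poisson 95% intervals as lines. VLMC, in red, sit to the right of the 8 other types in all 6 panels, at 2702 CPM for Dcn against 31.4 CPM or less elsewhere.

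Shares of cells showed the same genes at matched depth. After thinning each cell to 700 UMIs, which left out 3 VLMC, a Dcn UMI was present in 70.8% of 65 VLMC (exact binomial 95% interval 58.2 to 81.4), Col1a2 in 58.5% (45.6 to 70.6) and Lum in 26.2% (16.0 to 38.5). Unthinned, the shares of the 68 cells were 79.4%, 75.0% and 33.8%, and the median depth was 1275 UMIs. In endothelial cells, whose median depth was 1064 UMIs, the thinned shares were 1.43%, 2.59% and 0.268%, and in oligodendrocytes, which should lack these genes and had a median of 1136 UMIs, they were 0.281%, 0.0937% and 0.0468%. The shares in VLMC were thus well above the background of other types.

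Markers of the other annotated types summed to far less in VLMC than in their own type. Pericytes and smooth muscle have no label here, and their markers came nearer to the level of the highest type. In CPM, the astrocyte and oligodendrocyte markers were about as high in VLMC as those of pericytes. Border macrophage markers summed to 24.1 CPM, from 3 UMIs, with Mrc1, Lyve1, Cd163, Ms4a7 and Cbr2 at 0. Microglial markers summed to 241 CPM against 17569 CPM in microglia, with P2ry12, Trem2 and Siglech at 0. Endothelial markers summed to 1721 CPM, from 179 to 2474 CPM by mouse, against 13762 CPM in endothelial cells, and 144 of their 214 UMIs were of Itm2a, while Kdr was at 0. Pericyte markers summed to 2195 CPM, 770 to 2697 CPM by mouse, against 4439.9 CPM in endothelial cells, the type with the most, and 216 of their 273 UMIs were of vitronectin (Vtn). Smooth muscle markers summed to 941 CPM, 136 to 1224 CPM by mouse, a level near the 1085 CPM of endothelial cells, with Lmod1 at 0. Tanycyte and ependymal markers each summed to 257 CPM, with Rax, Dio2, Gpr50 and Frzb, and Ccdc153, Rsph1, Foxj1 and Hdc, at 0. Astrocyte markers summed to 2219 CPM against 19249 CPM in astrocytes, and oligodendrocyte markers to 2107 CPM, with Mag and Opalin at 0, oligodendrocyte precursor markers to 177 CPM with C1ql1, Olig2 and Neu4 at 0, and neuronal, haemoglobin and choroid plexus genes together to 708 CPM. The part of other cells' RNA in the VLMC levels was not tested, apart from the values given beside the results.

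The cells under this label were not uniform. By 7 genes picked after the values had been seen, they were described in 3 kinds, with no test and no new cell type name. A set of 7 cells, 4 from mouse 30, 2 from mouse 34 and 1 from mouse 4, was chosen for UMIs of Slc47a1, an exporter of organic cations, and none of Dcn. These cells held all 6 UMIs of E-cadherin (Cdh1), an adhesion protein of epithelial and arachnoid barrier cells, and 745 of the 836 UMIs of matrix Gla protein (Mgp), an inhibitor of calcification. A second set of 37 cells, with 3 or more UMIs of Igf2, Fmod, Ogn, Rbp4 and Aldh1a2 together and not among the 7, came from mouse 30 (31 cells), mouse 3 (3) and mouse 34 (3), and from mouse 4 in no case. Of the 7 cells, 1 of mouse 30 had 4 UMIs of these 5 genes and stayed with the 7. The remaining 24 cells, 11 of them from mouse 4, had Dcn at 7063 CPM against 1965 CPM in the 37 cells. The 7 cells were deeper, with a median of 3765 UMIs against 1285 in the 37 cells and 940 in the 24. They held 29754 of the 124361 UMIs of the pooled VLMC and 5814 of the 12530 UMIs of mouse 34. The mix of kinds therefore differed between mice, and in pooled VLMC the mix and other differences between mice cannot be told apart.

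A list of arachnoid barrier markers summed to 30009 CPM in VLMC, from 2944 CPM in mouse 4 to 48603 CPM in mouse 34. Prostaglandin D2 synthase (Ptgds), an enzyme and carrier of the meninges, gave 3610 of its 3732 UMIs, and the epithelial keratins Krt8 and Krt18 were at 0. Ptgds was at 18062, 2084, 34136 and 47087 CPM in mice 3, 4, 30 and 34. By kind it reached 49681 CPM in the 37 cells, 9478 CPM in the 7 cells and 3089.9 CPM in the remaining 24. Mouse 4, which had no cell among the 37, was the low mouse. Oligodendrocytes, the next type, had 13958 CPM.

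Against endothelial cells, their neighbours in the vessel wall, more genes of the matrix lists were called higher than lower in VLMC, and solute carriers were called in both directions. Counts were summed per mouse and type and compared in edgeR's quasi-likelihood test with the mouse as a block, and a gene was called at a Benjamini-Hochberg adjusted p under 0.05 and a log2 fold change past 1. Of 10205 genes tested, 393 were called higher in VLMC (3.85%) and 392 lower (3.84%), or 7.69% in either direction, and the median log2 fold change was -0.17. How the authors assigned the types is not given in the sources used here, and labels made from the same counts would select such differences. The p-values are therefore read only as a description of each difference against the gene's scatter in the fit. The fit held the sums of all types and mice, so this scatter is not that of VLMC between mice alone. A small p-value can stand beside VLMC levels that differ widely between the 4 mice, as for Ccl2 below. The scaling of the small VLMC sums moved the balance: 314 higher and 507 lower were called with DESeq2's kind of size factors and 263 and 832 with TMM over all genes, the planned scaling, at median log2 fold changes of -0.39 and -0.65. DESeq2, which differs in its test as well, called 242 and 789, at a median of -0.57. Without mouse 30, 157 and 112 were called. Differences from endothelial cells near 0 can therefore change sign with the scaling.

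Against the mean of the 8 other types, 574 genes were called higher in VLMC (5.62%) and 216 lower (2.12%), against 511 and 356 with DESeq2 and 497 and 436 with TMM over all genes; 7.74% were called in either direction. Against astrocytes, 594 were higher (5.82%) and 1022 lower (10.0%), or 15.8% in either direction, against 771 and 625 with no scaling beyond the UMI total. Without mouse 30 the counts were 263 and 28 against the mean and 273 and 292 against astrocytes. By level alone, 125 of the 1960 genes with at least 10 VLMC UMIs (6.38%) were at least 4-fold higher in pooled VLMC than in every other type, and 49 without mouse 30. The genes of largest ratio with a UMI in every mouse were Fmod at 123-fold over the next type, Efemp1 at 90.5-fold, Dcn at 86.1-fold, Col3a1 at 83.0-fold and Cyp1b1 at 61.5-fold.

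Of the fibrillar collagens and the proteins that process them, some were higher in VLMC and most were not called. Of 23 tested, 8 were called higher than in endothelial cells and none lower, with a median log2 fold change of 1.18 beside -0.17 over all genes tested, and 5 of 22 were called without mouse 30. Against astrocytes 7 were called higher and 2 lower (median 0.31), and the summed list was at 5589 CPM in VLMC and 4919 CPM in astrocytes. Collagen type I alpha 1 (Col1a1) was at 1252, 1314, 309 and 239 CPM in the mice taken in the order 3, 4, 30 and 34, against 5.33 CPM in endothelial cells, a log2 fold change of 6.81 ± 0.56 (SE; edgeR adjusted p = 1.95e-15). Collagen type III alpha 1 (Col3a1) was at 715, 679, 345 and 559 CPM, against 5.33 CPM, and was higher in VLMC by 6.40 ± 0.58 on the log2 scale. The procollagen C-proteinase enhancer Pcolce, which speeds the trimming of procollagen, was at 2146, 634, 392 and 319 CPM and differed by 4.31 ± 0.42. All 4 mice had these 3 genes above their endothelial cells, and Col1a2 differed by 5.48 ± 0.33. Sparc, a secreted collagen-binding protein of many vascular and glial cells, was at 1544 CPM in VLMC and 2624 CPM in endothelial cells, a log2 difference of -0.60 ± 0.14 that did not pass the fold limit (edgeR adjusted p = 0.00137), though it did with DESeq2, at -1.36, and with TMM over all genes, at -1.18.

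The small leucine-rich proteoglycans, which space and bind collagen fibrils, were high in VLMC. Of 7 tested, 6 were called higher than in endothelial cells and none lower, with a median of 3.71, and 6 of 8 were called without mouse 30. Dcn differed by 6.57 ± 0.33 (SE; edgeR adjusted p = 2.63e-25) and Lum by 6.92 ± 0.67 (edgeR adjusted p = 4.13e-12), higher in 4 of 4 mice. Fibromodulin (Fmod) was at 536, 45.3, 1093 and 1596 CPM in mice 3, 4, 30 and 34, against 2.37 CPM in endothelial cells, a difference of 8.04 ± 0.64. It was low in mouse 4, with 1 UMI, where Lum and Dcn were high. Osteoglycin (Ogn) was at 0, 226, 784 and 718 CPM and differed by 3.71 ± 0.45, a call that was lost with DESeq2 (log2 2.16, adjusted p = 0.205), and biglycan (Bgn) was even, at 894, 815, 547 and 798 CPM, and differed by 2.85 ± 0.31.

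Basement membrane and elastic fibre genes were called in both directions, more of them higher in VLMC. Of 29 tested, 15 were called higher and 4 lower, with a median of 2.01, and 7 and 2 of 29 without mouse 30. Efemp1, a fibulin of elastic fibres, was at 536, 997, 475 and 479 CPM, against 3.55 CPM in endothelial cells, a difference of 7.27 ± 0.49 (SE; edgeR adjusted p = 4.23e-19). Osteopontin (Spp1), a phosphoprotein that binds integrins, was at 3934, 1314, 1009.9 and 958 CPM and differed by 4.08 ± 0.40, with mouse 3 well above the other 3. Collagen type VI alpha 1 (Col6a1), of the beaded filaments around cells, had 36 UMIs in VLMC (289 CPM) and 0 UMIs in endothelial cells, where the floor of 3 counts is 1.78 CPM. Fibronectin (Fn1) was lower in VLMC, at 0, 45.3, 333 and 399 CPM against 568 CPM (log2 -1.25 ± 0.30), as were Col4a2, Agrn and Lama5.

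Mgp and Vtn depended on which cells were included. Mgp was at 715, 9286, 5632 and 12211 CPM (mice 3, 4, 30 and 34) against 347 CPM in endothelial cells, a difference of 4.23 ± 0.34 (edgeR adjusted p = 6.93e-16), and at 0.90 (adjusted p = 0.293) without the 7 cells with Slc47a1 and no Dcn. Vtn, an adhesion protein that pericytes also make, was at 1073, 136, 2234 and 1516 CPM against 1046 CPM, a log2 difference of 0.50 ± 0.27 that did not pass the test (edgeR adjusted p = 0.312), and it was -0.54 without mouse 30 and -0.79 with DESeq2. It passed without mouse 4, at 1.02, and without the 7 cells, at 1.13.

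**Figure D2:**
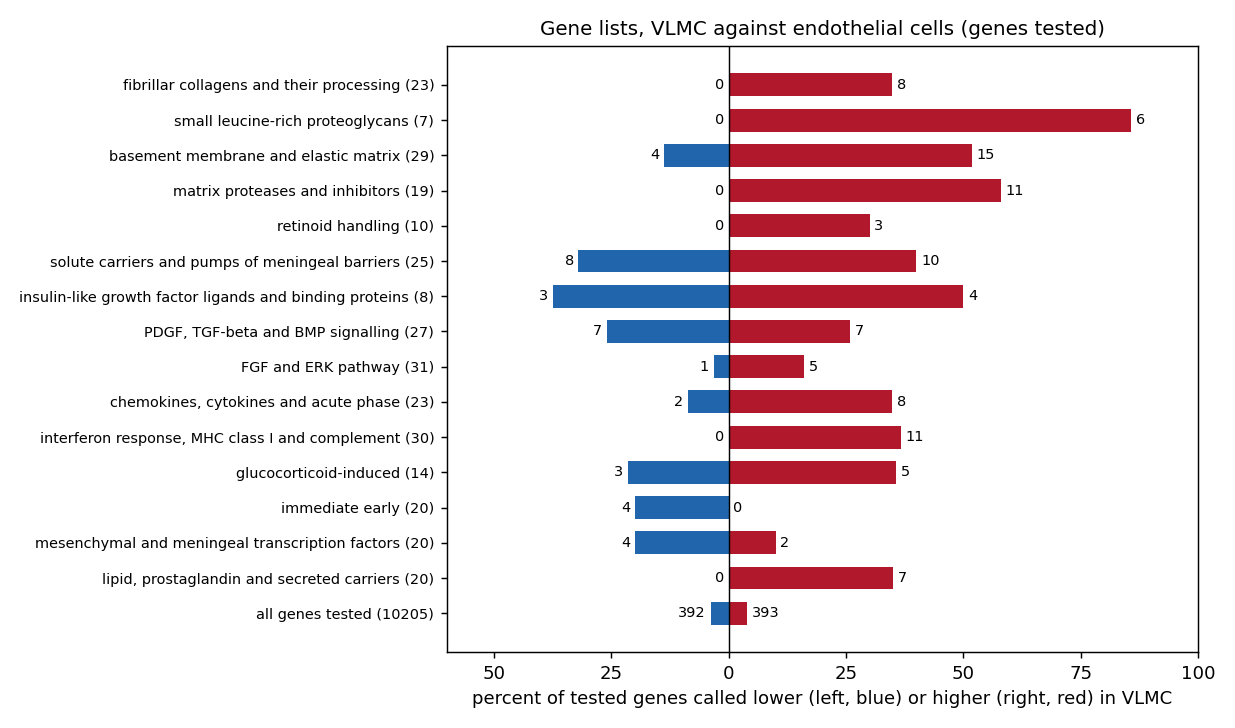
Percent of the tested genes of 15 lists that were called higher (red, right) or lower (blue, left) in VLMC than in endothelial cells, with the number called at the end of each bar and the number tested in brackets. Small leucine-rich proteoglycans had 6 of 7 genes called higher and the immediate early list had 4 of 20 called lower and 0 higher.

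Matrix proteases and their inhibitors were called in the higher direction alone in this fit, 11 of 19 with a median of 2.40, and 9 of 18 without mouse 30. Serping1, the inhibitor of complement C1, was at 894, 589, 606 and 958 CPM, against 17.8 CPM in endothelial cells, a difference of 4.92 ± 0.45 (edgeR adjusted p = 1.21e-13). Cathepsin L (Ctsl), a lysosomal protease, was at 2146, 453, 677 and 638 CPM and differed by 2.68 ± 0.27. Serpinf1, a secreted inhibitor of vessel growth, had 20 UMIs and differed by 5.95 ± 0.75, and cathepsin K (Ctsk), a collagenase, had 9 UMIs and differed by 6.08 ± 0.97. Cystatin C (Cst3) and Timp3, inhibitors of cathepsins and metalloproteases, were at 5934 and 1367 CPM in VLMC and did not pass the test, at 0.25 ± 0.12 and 0.42 ± 0.19, with signs that turned under other scalings.

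VLMC carried a set of retinoid genes that were near 0 in the other types. The enzyme that makes retinoic acid, Aldh1a2, was at 0, 0, 333 and 319 CPM in mice 3, 4, 30 and 34, the carrier Rbp4 at 0, 0, 582 and 878 CPM, and the enzyme that breaks retinoic acid down, Cyp26b1, at 0, 0, 273 and 0 CPM. Mice 3 and 4 had no UMI of any of these 3, where the floor of 3 counts is 537 CPM and 136 CPM, so their absence in mouse 3 was not resolved at this depth. Endothelial cells had 1.78, 1.18 and 5.92 CPM of the same 3 genes, and all 3 fell below the filter on low counts and were not tested. Of 10 retinoid genes tested, 3 were called higher and 0 lower (median 0.56, which turned to -0.01 with TMM over all genes and -0.17 with DESeq2), and 1 was called without mouse 30. Rdh10, which makes retinaldehyde, had 0, 136, 238 and 0 CPM and differed from endothelial cells by 3.97 ± 0.59 on the log2 scale of the edgeR fit, and by 2.78 (adjusted p = 0.401) without mouse 30.

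Among solute carriers and pumps, VLMC and endothelial cells held different members. Of 25 tested, 10 were called higher and 8 lower in VLMC, with a median of 0.04 that fell to -0.44 with TMM over all genes and -0.62 with DESeq2, and 8 and 6 of 24 were called without mouse 30 (median -0.45). Slc6a13, a transporter of GABA and taurine that marks the meninges, was at 1073, 408, 439.6 and 479 CPM in mice 3, 4, 30 and 34, against 18.9 CPM in endothelial cells, a difference of 4.43 ± 0.49 (edgeR adjusted p = 1.07e-10). The cystine-glutamate exchanger Slc7a11 was at 1073, 0, 998 and 1038 CPM and differed by 4.24 ± 0.37, and mouse 4 was the low mouse although its floor was 136 CPM. The bicarbonate transporter Slc4a10 was at 0, 544, 261 and 718 CPM (5.79 ± 0.51) and the amino acid transporter Slc38a2 at 0, 951, 475 and 1437 CPM (2.16 ± 0.30). Both calls were lost without the 7 cells with Slc47a1, at 2.71 (adjusted p = 0.167) and 0.87 (adjusted p = 0.299). On the lower side, the thyroxine transporter Slco1c1 had 1 UMI in VLMC and 613 CPM in endothelial cells (-6.14 ± 0.68, edgeR adjusted p = 1.24e-10), the glucose transporter Slc2a1 had 4 UMIs and 1378 CPM, and the iron exporter Slc40a1 had 0 UMIs, below a floor of 24.1 CPM, and 201 CPM.

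VLMC were high in insulin-like growth factor 2 and several of its binding proteins. Of 8 genes tested, 4 were called higher and 3 lower, with a median of 2.46, and 4 and 1 were called without mouse 30. The ligand Igf2 was at 2325, 45.3, 2174 and 559 CPM in mice 3, 4, 30 and 34, against 121 CPM in endothelial cells, a difference of 2.94 ± 0.30 (edgeR adjusted p = 8.02e-12), and it was above the endothelial cells of the same mouse in 3 of 4 mice. The binding protein Igfbp2 was at 536, 226, 1034 and 1676 CPM and differed by 6.70 ± 0.47, and Igfbp5 was at 894, 5073, 1331 and 4150.0 CPM and differed by 5.55 ± 0.25. Igfbp2 lay mainly in the 37 cells, at 1596 CPM against 306 CPM in the remaining 24, while Igfbp5 was at 76.7 CPM in the 37 cells, 4244 CPM in the remaining 24 and 5075 CPM in the 7. The binding protein Igfbp7, which endothelial cells secrete, was lower in VLMC (-1.08 ± 0.34, edgeR adjusted p = 0.0315), as were the receptor Igf1r and Igfbp3.

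Growth factor signalling genes went in both directions. Of 27 genes of PDGF, TGF-beta and BMP signalling, 7 were called higher and 7 lower than in endothelial cells, with a median of 0.06 that fell to -0.43 with TMM over all genes and -0.65 with DESeq2, and 5 and 4 of 28 were called without mouse 30 (median -0.31). The PDGF receptor Pdgfra, a marker of fibroblasts and of oligodendrocyte precursors, was at 715, 362, 202 and 0 CPM against 12.4 CPM (4.00 ± 0.56, edgeR adjusted p = 1.15e-07), and oligodendrocyte precursors had 1236 CPM. The BMP antagonist Nbl1 differed by 2.49 ± 0.29 and Tgfbi, a matrix protein induced by TGF-beta, by 5.06 ± 0.78. The BMP target Id1 was lower in VLMC, at 418 CPM against 1269 CPM (-1.50 ± 0.24), and the endothelial receptor Acvrl1, with 1 UMI, was lower by -4.70 ± 0.83.

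For the FGF pathway, which the injected protein addresses, VLMC held 22 UMIs of the receptor Fgfr1, at 358, 453, 107 and 79.8 CPM in mice 3, 4, 30 and 34. Endothelial cells had 34.3 CPM, a difference of 2.42 ± 0.49 (edgeR adjusted p = 0.000215), while ependymal cells had 145 CPM and astrocytes 109.8 CPM, and the difference from astrocytes was 0.29 and not called. At 700 UMIs a cell, Fgfr1 was present in 7.69% of VLMC, 9.05% of ependymal cells, 7.67% of astrocytes and 1.97% of endothelial cells. Fgfr2 and Fgfr3 had 5 and 7 UMIs. Of 31 FGF and ERK pathway genes, 5 were called higher and 1 lower (median 0.47, and -0.02 with TMM over all genes and -0.05 with DESeq2), and 2 and 0 without mouse 30. The heparan sulphate proteoglycans Sdc4, Sdc2 and Gpc3, co-receptors of FGFs, differed by 1.50 ± 0.34, 2.05 ± 0.33 and 2.85 ± 0.42. Without mouse 30 these 3 calls were lost, at 0.66, 1.85 and 2.23 (adjusted p = 0.783, 0.123 and 0.239), and the call of Sdc4 was lost with DESeq2 as well.

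Transcription factors of mesenchyme and meninges were sparse. Of 20 tested, 2 were called higher and 4 lower than in endothelial cells, with a median of 0.74 that was -0.00339 with DESeq2, and 1 and 0 without mouse 30. Zic1, a factor of the meninges, was at 894, 272, 226 and 559 CPM against 123 CPM (1.41 ± 0.38, edgeR adjusted p = 0.00729), and its call was lost without mouse 34 (1.25, adjusted p = 0.0971), with DESeq2 and with TMM over all genes. Foxc1, which the formation of the meninges requires, was at 225 CPM in VLMC and 194 CPM in endothelial cells and at 6.56 CPM or less in the other 7 types. Foxp2 differed by 3.40 ± 0.79 from 10 UMIs and Foxf2, a pericyte factor, by -2.73 ± 0.76 from 2 UMIs, and both calls were lost without mouse 30, at folds of similar size (3.17 and -2.40, adjusted p = 0.302 and 0.438). The call of Foxf2 was also lost without mouse 34 (-2.50, adjusted p = 0.0634) and without the 7 cells with Slc47a1 (-2.28, adjusted p = 0.0797).

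Of the lipid and secreted carriers, 7 of 20 were called higher and 0 lower than in endothelial cells, with a median of 0.94, and 6 and 0 without mouse 30. The direction was that of this comparison: 6 were called higher and 3 lower against the mean of the 8 types (median 0.17), and 5 and 8 against astrocytes (median -1.03). Apolipoprotein D (Apod), a carrier of small lipids, was at 9657, 6296, 3232 and 4629 CPM, against 135 CPM in endothelial cells, a difference of 5.13 ± 0.24 (edgeR adjusted p = 1.31e-26), and Ptgds differed by 5.49 ± 0.37. Ceruloplasmin (Cp), a copper-carrying ferroxidase, was at 536, 181, 1283 and 159.6 CPM and differed by 1.49 ± 0.36, by 0.82 (adjusted p = 0.726) without mouse 30 and by 0.28 (adjusted p = 0.802) with DESeq2. Over the 9 types, the genes whose levels were most like those of Dcn were Slc6a13 (Pearson r = 0.993 of log2(CPM + 10), n = 9 types), Col3a1 (0.991), Cyp26b1 (0.987), Cped1 (0.986) and Lum (0.984). The 9 points share libraries, and the VLMC point sets these values, so they are a description.

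The VLMC of mouse 30 held much chemokine RNA, and those of the other mice held little. Ccl2, which draws monocytes, was at 0 CPM in mouse 3, 45.3 in mouse 4, 14175 in mouse 30 and 79.8 in mouse 34. Cxcl1, which draws neutrophils, was at 0, 725, 6808 and 0 CPM, and Cxcl10, an interferon-induced attractant of T cells, at 0, 136, 3731 and 79.8 CPM. Mouse 30 was the high mouse for all 3, and Ccl2 was 1 UMI each in mice 4 and 34. Ccl7 followed at 0, 0, 2626 and 79.8 CPM, Cxcl2 at 0, 0, 1747 and 0 CPM, Ccl19 at 0, 0, 1521 and 0 CPM and Ccl5 at 0, 0, 891 and 0 CPM. For mice 3, 4 and 34 pooled, with 24 cells and 40198 UMIs, the floor of 3 counts is 74.6 CPM, well below those levels.

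Promoter sequences of 4 of these genes are shown because members of the chemokine and interferon lists were high together in 1 mouse. Each is the 250 bases before the annotated start in RefSeq, build GRCm38.p6, 5′ to 3′ on the gene's strand, with capitals on matches to the NF-kB consensus and to GAAANNGAAA, the core of interferon-stimulated response elements. Cxcl1 is at chr5:90890995-90891244 (plus strand), Cxcl2 at chr5:90903649-90903898 (plus strand), Cxcl10 at chr5:92348890-92349139 (minus strand) and Isg15, an interferon-induced ubiquitin-like protein, at chr4:156200819-156201068 (minus strand).
Cxcl1: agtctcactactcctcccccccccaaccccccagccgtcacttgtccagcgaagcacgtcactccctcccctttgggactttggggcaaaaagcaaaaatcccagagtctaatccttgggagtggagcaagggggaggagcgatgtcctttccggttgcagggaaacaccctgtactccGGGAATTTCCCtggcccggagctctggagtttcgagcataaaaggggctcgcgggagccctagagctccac
Cxcl2: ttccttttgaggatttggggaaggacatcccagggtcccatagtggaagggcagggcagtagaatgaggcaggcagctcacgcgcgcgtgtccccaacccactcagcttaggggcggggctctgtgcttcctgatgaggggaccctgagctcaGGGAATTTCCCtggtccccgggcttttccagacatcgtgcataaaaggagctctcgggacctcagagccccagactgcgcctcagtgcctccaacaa
Cxcl10: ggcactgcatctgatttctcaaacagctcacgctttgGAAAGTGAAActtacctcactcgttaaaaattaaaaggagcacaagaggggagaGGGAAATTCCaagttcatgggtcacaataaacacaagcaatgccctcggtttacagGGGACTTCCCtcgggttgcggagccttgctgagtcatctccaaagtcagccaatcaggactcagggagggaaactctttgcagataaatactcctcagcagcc
Isg15: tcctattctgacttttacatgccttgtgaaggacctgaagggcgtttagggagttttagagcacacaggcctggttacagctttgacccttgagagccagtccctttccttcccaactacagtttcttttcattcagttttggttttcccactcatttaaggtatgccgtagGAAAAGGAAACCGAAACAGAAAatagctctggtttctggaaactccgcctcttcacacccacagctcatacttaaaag
The capitals of Cxcl1 and of Cxcl2 are 2 overlapping NF-kB matches each, starting 71 and 70 bases and 97 and 96 bases before the start. Those of Cxcl10 are a GAAANNGAAA match at 213 bases and NF-kB matches at 159 and 103 bases, and those of Isg15 are 3 overlapping GAAANNGAAA matches at 78, 72 and 66 bases.

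Both motifs were searched on both strands. Of the 12 chemokine list members at least 4-fold higher in mouse 30, 9 had a promoter in the RefSeq table, 5 of these held an NF-kB match (Cxcl1, Cxcl2, Cxcl10, Csf1 and Nfkbia) and 2 a GAAANNGAAA match (Ccl19 and Cxcl10). Of the 14 interferon list members, 10 had a promoter, 1 held an NF-kB match (Bst2) and 5 a GAAANNGAAA match (Isg15, Ifit3, Bst2, Gbp2 and Gbp3). Of all 32851 promoters of the same length, 3.90% held the first motif and 2.98% the second. A match of letters is not a site, and the counts are given without a test.

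Between mouse 30 and the other 3 mice pooled, 77 of the 1238 genes with at least 15 VLMC UMIs (6.22%) were at least 4-fold higher in mouse 30 and 14 (1.13%) at least 4-fold lower, counts with no test because mouse 30 is 1 animal. The chemokine, cytokine and acute phase list held 12 of the 77 among its 18 such genes, with a median log2 ratio of 4.17 beside 0.03 over all 1238, and 1 of the 14. The interferon, MHC class I and complement list held 14 of the 77 among 23, with a median of 2.28, and the glucocorticoid-induced list 2 among 8. A gene that reached 15 UMIs through mouse 30 alone had to differ, so these counts and medians are a description. Summed over all members, the chemokine list was at 3040.1, 2673, 35978 and 1596 CPM in mice 3, 4, 30 and 34, a 15.1-fold ratio of mouse 30 to the others pooled. The pooled VLMC level of the list was 25120.4 CPM with mouse 30 and 2388 CPM without it. Mural cell markers were also highest in mouse 30, at 2697 CPM for pericytes (770 to 1609 CPM in the others) and 1224 CPM for smooth muscle (136 to 715 CPM), and their part in the chemokine and interferon levels was not tested.

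**Figure D3:**
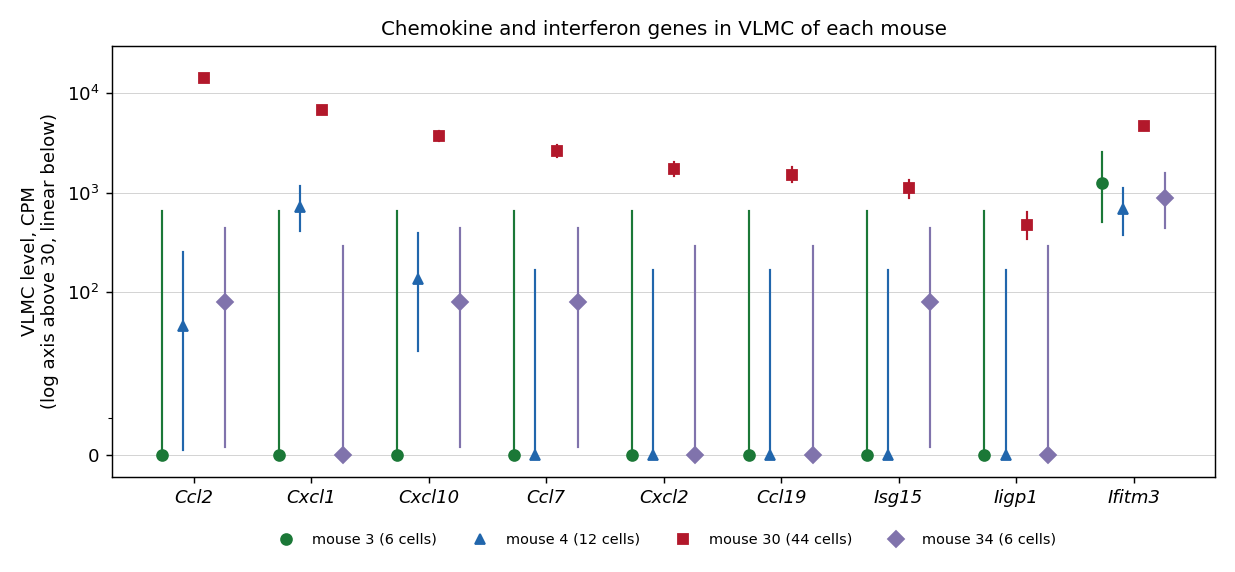
VLMC levels of 6 chemokine and 3 interferon-induced genes in each mouse, in CPM on a log axis that is linear below 30, with exact Poisson 95% intervals as lines. Mouse 30, the red squares, lies above the other 3 mice for all 9 genes, at 14175 CPM for Ccl2 against 79.8 CPM or less.

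Interferon-induced genes were also high in that mouse. Isg15 was at 0, 0, 1105 and 79.8 CPM in mice 3, 4, 30 and 34, the GTPase Iigp1 at 0, 0, 475 and 0 CPM, and the long noncoding RNA AW112010 at 0, 0, 535 and 0 CPM. Ifitm3, a membrane protein that restricts viral entry, was at 1252, 679, 4705 and 878 CPM, so every mouse had it. The whole list summed to 4292, 5164, 19724 and 6464 CPM, a 3.62-fold ratio of mouse 30 to the others.

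A gene found only in mouse 30, which gave 67.7% of the UMIs, reached 15 UMIs at a lower CPM than a gene found only in the other mice, so the 77 higher and 14 lower genes are not set against each other. Genes with the lowest ratios in mouse 30 included Penk, Col15a1, Mfap5, Htra3, Txnip, Lum and Crip2. The opioid precursor Penk was at 0, 725, 0 and 399 CPM, the collagen Col15a1 at 1073, 408, 0 and 79.8 CPM, and the protease Htra3 at 536, 679, 59.4 and 239 CPM. Penk lay in the 7 cells with Slc47a1, with 20 of its 21 UMIs there, all from mice other than mouse 30. The count of 14 lower genes was 4 without mouse 4 and 23 without mouse 34.

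The chemokines were spread over most VLMC of mouse 30 but not evenly. Ccl2 was present in 31 of its 44 cells, with a median of 18 UMIs a cell and a highest value of 155, and the 5 highest cells held 41.6% of its Ccl2. Of the 31 cells, 24 held Dcn and Ccl2 together. At 700 UMIs a cell, Ccl2 was present in 75.6% of the VLMC of mouse 30 (exact binomial 95% interval 59.7 to 87.6), in 49.2% of VLMC of all mice, 48.5% unthinned, and in 21.3% of microglia, 9.20% of ependymal cells, 2.14% of endothelial cells and 0.54% of oligodendrocytes. Within mouse 30 alone, the share was 41.4% of ependymal cells, 35.8% of microglia, 10.4% of endothelial cells and 5.24% of oligodendrocytes (exact binomial 95% interval 3.23 to 7.97), which should lack the gene. The median depth there was 1259.5 UMIs in VLMC and 894 UMIs in oligodendrocytes. The share in VLMC of mouse 30 was above this background of its own library.

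The 3 kinds of cells differed in this as well. In mouse 30 the chemokine list summed to 52364 CPM in its 31 cells of the second set, with 3 or more UMIs of Igf2, Fmod, Ogn, Rbp4 and Aldh1a2, to 9505 CPM in the 9 remaining cells and to 545 CPM in the 4 cells with Slc47a1, which had 0 UMIs of Ccl2. Among the 9 remaining cells, 1 cell held 38 of the 74 chemokine UMIs and all 18 of Ccl2. It had 2 UMIs of the 5 genes, next to the limit of 3, and a doublet score of 0.221, and the other 8 cells were at 5196 CPM. In the other mice the list was at 2011 CPM in 6 cells, 3231 CPM in 15 cells and 835 CPM in 3 cells. The exact Poisson 95% intervals, for counting error only, were 50489 to 54291 CPM and 1192 to 3177 CPM in the second set, where the 6 other cells come from mice 3 and 34 alone, and overlapped in the cells with Slc47a1, at 272 to 976 CPM and 361 to 1646 CPM. The kinds were picked after the values had been seen, and these levels have no test.

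**Figure D4:**
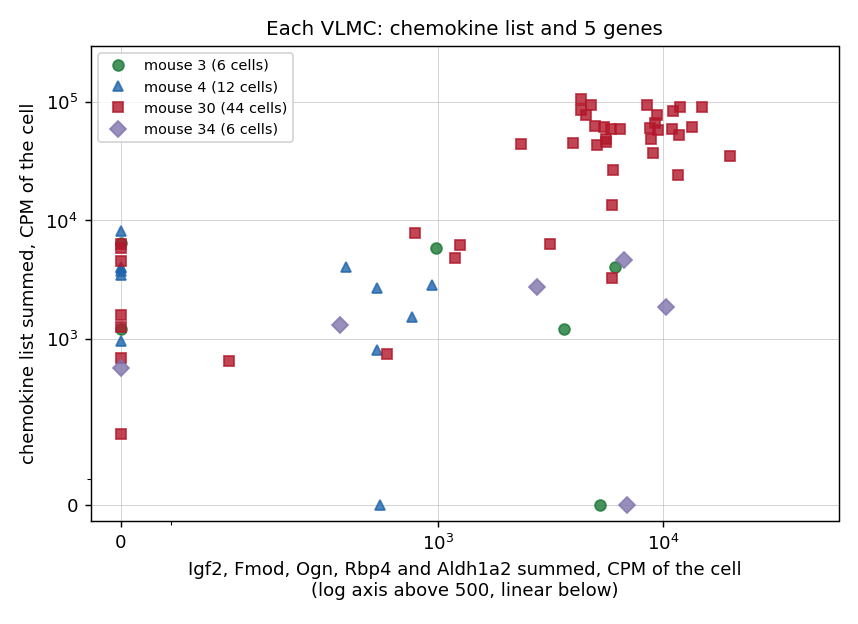
Each point is 1 VLMC, with the summed level of Igf2, Fmod, Ogn, Rbp4 and Aldh1a2 on the x axis and the summed chemokine list on the y axis, both in CPM of the cell on log axes that are linear below 500. Most cells of mouse 30 to the right also lie high on the y axis, with some below, as 1 cell at 5939.5 CPM on x and 3239.7 CPM on y, and the cells of mice 3 and 34 to the right lie low.

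Against endothelial cells, 8 of 23 chemokine list genes were called higher and 2 lower (median 1.51), with 4 and 1 of 22 without mouse 30 (median 0.64) and 5 and 3 with DESeq2 (median 0.39). Ccl2 differed by 5.66 ± 0.56 (SE; edgeR adjusted p = 1.78e-12), higher in 3 of 4 mice, and by 3.32 (adjusted p = 0.465) without mouse 30. Ccl7 differed by 5.30 ± 0.43, and by 6.70 (adjusted p = 0.448) without mouse 30. Cxcl2 differed by 3.49 ± 0.39, and by -6.15 (adjusted p = 0.786) without it. The values without mouse 30 rest on 2 VLMC UMIs of Ccl2, 1 of Ccl7 and 0 of Cxcl2, so they give no size or direction. The calls of these 3 genes rested on mouse 30. The calls of Cxcl1 (3.89 ± 0.32), Cxcl2 and Ccl5 (4.03 ± 0.63) were lost with DESeq2 (adjusted p = 0.285, 0.653 and 0.480), while Cxcl10 (5.07 ± 0.48) was called with DESeq2. Without mouse 30, Cxcl10 (6.34, edgeR adjusted p = 0.00609) and Cxcl1 (3.65, edgeR adjusted p = 0.000138) were both called. Outside mouse 30, Cxcl1 had VLMC UMIs in mouse 4 alone, and Cxcl10 reached at most 136 CPM, the level of 3 counts in mouse 4. The call of Cxcl1 without mouse 30 thus rested on 1 mouse and that of Cxcl10 on few UMIs. Cxcl12, a chemokine that endothelial cells and pericytes make steadily, was lower in VLMC, at 358, 181, 368 and 239 CPM against 1129.8 CPM (-1.81 ± 0.26).

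The interferon, MHC class I and complement list had 11 of 30 genes called higher than in endothelial cells and 0 lower (median 0.88), with 3 of 28 without mouse 30 (median -0.12) and 5 of 30 with DESeq2 (median 0.05). Ifi27l2a, an interferon-induced protein, was at 0, 181, 903 and 239 CPM against 27.8 CPM (3.61 ± 0.40, edgeR adjusted p = 8.80e-11). Ifitm1 and Ifitm2 differed by 2.07 ± 0.32 and 1.64 ± 0.25, by 0.69 and 1.10 (adjusted p = 0.738 and 0.154) without mouse 30 and by 0.25 and 0.61 (adjusted p = 0.861 and 0.340) with DESeq2. Ifitm3 did not pass the fold limit, at 0.87 ± 0.24, and was -0.29 without mouse 30 and -0.60 with DESeq2. It was called with thinned sums, at 1.24 (edgeR adjusted p = 0.000337), and without the 7 cells with Slc47a1, at 1.31 (edgeR adjusted p = 5.5e-05).

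Other types of mouse 30 held more chemokine RNA than in the other mice, to unequal degrees. The ratio of mouse 30 to the other 3 mice pooled was 22.5-fold in ependymal cells, 15.1-fold in VLMC, 5.74-fold in tanycytes, 4.35-fold in microglia, 2.42-fold in oligodendrocyte precursors, 2.03-fold in endothelial cells, 1.77-fold in astrocytes, 1.74-fold in committed oligodendrocyte precursors and 1.48-fold in oligodendrocytes. In mouse 30 the list stood at 35978 CPM in VLMC, 20217 CPM in microglia, 9643 CPM in ependymal cells and 5267 CPM in endothelial cells. For the interferon list the ratio was 4.26-fold in ependymal cells, 3.62-fold in VLMC, 2.60-fold in microglia, 2.33-fold in tanycytes and 2.12-fold in oligodendrocytes. It was 1.38-fold in astrocytes, 1.29-fold in oligodendrocyte precursors, 1.15-fold in committed oligodendrocyte precursors and 1.03-fold in endothelial cells. With 1 mouse on this side of the ratio, these differences between types have no test.

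**Figure D5:**
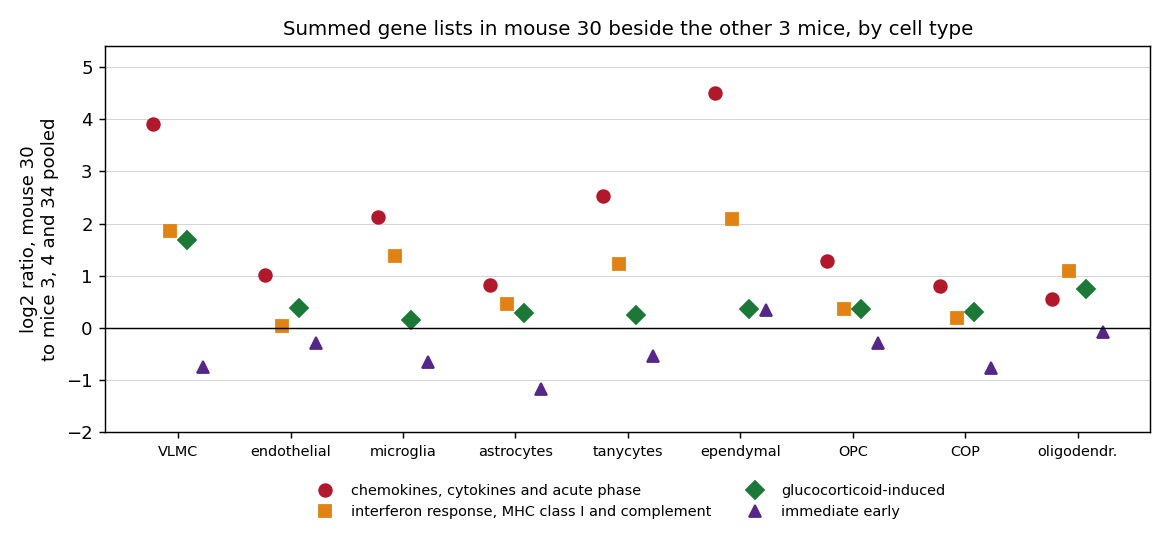
Log2 ratio of mouse 30 to mice 3, 4 and 34 pooled for 4 summed gene lists in 9 cell types, each point 1 list in 1 type and the line at 0 no difference. The chemokine list is highest in ependymal cells and VLMC, at ratios of 22.5-fold and 15.1-fold, and lowest in oligodendrocytes, at 1.48-fold.

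The glucocorticoid-induced list was high in mouse 30 mainly through 2 metallothionein genes. The list summed to 6438, 7791, 21660.3 and 5108 CPM in VLMC of mice 3, 4, 30 and 34, a 3.20-fold ratio, against 1.31-fold in endothelial cells. The metallothionein genes Mt1 and Mt2, which buffer zinc and also respond to inflammation, were at 14674 and 4622 CPM in mouse 30 and at 4620.4 CPM or less and 1252 CPM or less in the others. Against endothelial cells 5 of 14 genes were called higher and 3 lower (median 0.32, and -0.16 with TMM over all genes and -0.35 with DESeq2), and 1 and 1 without mouse 30. Mt1 and Mt2 differed by 1.18 ± 0.16 and 1.28 ± 0.19 (edgeR adjusted p = 5.63e-08 and 5.12e-07), and without mouse 30 by 0.11 and 0.09 (adjusted p = 0.818 and 0.914), and with DESeq2 by 0.04 and 0.10. The receptor co-chaperone Fkbp5 differed by 3.25 ± 0.41 and the EGF receptor inhibitor Errfi1 by 3.32 ± 0.44, the latter lost without mouse 30 (2.89, adjusted p = 0.0874).

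Immediate early genes, which dissociation also induces, were called lower or higher depending on the type compared. None of 20 was called higher and 4 were called lower than in endothelial cells (median -0.74), with 13 lower under TMM over all genes, 12 with DESeq2 and 2 without mouse 30. Against the mean of the 8 types 13 were called higher and 0 lower (median 1.94), and against astrocytes 16 and 0 (median 2.75). Klf4, Btg2, Klf2 and Cyr61 were the 4, and Cyr61, a matricellular protein, was at 536, 45.3, 131 and 79.8 CPM against 717 CPM (-2.07 ± 0.45, edgeR adjusted p = 0.000652). The list summed to 16810 CPM in mouse 3, 11506 in mouse 4, 5977 in mouse 30 and 4310 in mouse 34, so mouse 30 was not the high mouse here. By kind it was at 15721 CPM in the remaining 24 cells, 6062 CPM in the 37 cells and 1580 CPM in the 7 cells.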

How the data were processed

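Hypothalamus cells of 4 labelled mice were analysed, and 12 other libraries in the same table, with 50172 cells, are not among the labelled samples and were not used. Per the labels, the authors used Cell Ranger 1.2 and Seurat, and the deposited counts are UMI counts of 16411 genes per cell. The deposited cell table holds the authors' type labels, the percent of mitochondrial and ribosomal UMIs, a doublet score given as a fraction from 0 to 1, and a silhouette score per cell. The sources used here do not give the doublet caller or how cells were labelled. Members and gene lists were chosen with earlier results of these data known.

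Counts were summed into 36 sums per mouse and type and fitted in edgeR 4.0.16 (R 4.3.3) with type and mouse as terms, after its default filter on low counts, with Benjamini-Hochberg adjustment over the 10205 genes that passed. TMM factors were taken over the 230 genes of at least 500 CPM on average, because TMM leaves out genes with 0 counts and the VLMC sums are small. This was a change from the planned scaling made after the data were seen, and which scaling is nearer the truth was not tested. A gene's SE is its log2 fold change divided by the root of its F value. DESeq2 1.42.0, other scalings, filters, thinning and leaving out each mouse or the 7 cells with Slc47a1 were tried. The mouse block was kept because sums with the same number come from the same animal. Pooled levels and shares carry exact 95% intervals, which cover counting error only, and 3 counts were taken as the floor of a level of 0. Mouse 30 was set against mice 3, 4 and 34 pooled with 0.5 UMI added, without a test.

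Genes named were Dcn, Col1a2 and Lum, the 4 highest and 2 most changed of each of 15 lists, the 15 of largest ratio to every other type, 8 in each direction between mouse 30 and the others and the 5 most like Dcn. Other genes were named after their values were seen, and some genes that the rule names are not reported here.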

Additional observations from a re-analysis of the deposited data

Results flagged for a closer look

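In a test for a mouse far from the other 3, 15 of 48 VLMC values were past the 95% limit, where chance gives about 1 in 20, and in 11 of the 15 the mouse was mouse 30. These values share libraries and list members, so they are not independent. Genes entered with at least 100 pooled VLMC UMIs, which Ccl2, Ccl7, Ccl19, Cxcl1, Cxcl2, Cxcl10, Ifitm3 and Mt2 would not have reached without mouse 30, so the number past the limit cannot be read against chance.

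Among summed lists, mouse 30 was apart for chemokines, cytokines and acute phase genes at 35980.0 CPM (1596 to 3040.0 CPM in the others), for interferon, MHC class I and complement genes at 19720.0 CPM (4292 to 6464 CPM) and for glucocorticoid-induced genes at 21660.0 CPM (5108 to 7791 CPM). Mouse 3 was apart for matrix proteases and inhibitors, at 14130.0 CPM against 10740.0 to 11240.0 CPM.

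Among genes, mouse 30 was apart for Ccl2 at about 14170 CPM and Ccl7 at 2626 CPM (both 0 to 79.8 CPM in the others), Cxcl1 at 6808 CPM (0 to 725 CPM), Cxcl10 at 3731 CPM (0 to 136 CPM), and Cxcl2 at 1747 CPM and Ccl19 at 1521 CPM (both 0 CPM). It was also apart for Ifitm3 at 4705 CPM (679 to 1252 CPM) and Mt2 at 4622 CPM (958 to 1252 CPM). The genes named for mouse 30 entered through its UMIs, so their values are a description and not a test result. Mouse 3, with 6 VLMC, was apart for Fos at 6795 CPM (1188 to 1903 CPM) and Spp1 at 3934 CPM (958 to 1314 CPM). Mouse 4 was apart for Slc7a11 at 0 CPM (998 to 1073 CPM), a level for which 3 counts would be 136 CPM.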

How the results depend on the processing

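Among the fits that leave out 1 mouse, calls were fewest without mouse 30, which held 67.7% of the VLMC UMIs. The part that this loss of depth plays in the counts was not tested. Leaving out 1 mouse at a time gave 269 to 741 genes called against endothelial cells, 291 to 815 against the mean of the 8 types and 565 to 1521 against astrocytes, in each case lowest without mouse 30. The chemokine list was at 2388 to 29965 CPM and the count of genes at least 4-fold over every type 49 to 119, both lowest without mouse 30, and the count at least 4-fold lower in mouse 30 was 4 to 23. Thinning all sums to the VLMC total left 89, 129 and 163 calls among 484 genes tested, fewer genes by construction, and fitting VLMC with 1 other type left 418 calls against endothelial cells among 2465 tested and 882 against astrocytes among 4174. The count of genes over every type was 78 with at least 20 UMIs, 220 at 2-fold and 69 at 8-fold, and Col1a2 was in 75.0% of unthinned cells.

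The mouse number pairs the sums because they come from the same animal. Without this block 735, 792 and 1568 genes were called against endothelial cells, the mean and astrocytes. Signs turned for Vtn (-0.79 with DESeq2, -0.54 without mouse 30), Timp3 (-0.36 with DESeq2, -0.080 with TMM over all genes), Cst3 (-0.016 with DESeq2's kind of size factors, -0.71 with DESeq2, -0.45 with TMM over all genes), Cxcl2 (-6.15 without mouse 30, a fitted value from 0 VLMC UMIs that gives no direction) and Ifitm3 (-0.60 with DESeq2, -0.29 without mouse 30). Under other alternatives some of these genes kept their sign. Vtn was 1.02 without mouse 4 and 1.13 without the 7 cells with Slc47a1, and Cxcl2 was 3.70 without mouse 3. Ifitm3 was 0.96 without mouse 4, 1.24 with thinned sums and 1.31 without the 7 cells. The causes were not tested. Of the single gene values under an alternative whose sign did not turn, 869 kept their direction and side of the threshold, 38 lost the call, 6 gained it and 3 moved. A planned exclusion of VLMC with 2 or more UMIs of another type's markers left no cell, so it gave no value, and a weaker one, which left out 3 cells, was chosen after seeing the data, as were leaving out the 7 cells with Slc47a1, no scaling and the TMM over abundant genes used here. The planned TMM over all genes called 1095 genes against endothelial cells. The depth of 6 VLMC in mice 3 and 34 limits what a level of 0 can show there.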
